A study of Rattus norvegicus with 15 samples.

Results

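The genes described here are 103 rat genes whose mean transcript level was at least 8-fold lower when marrow stromal cells were kept in osteogenic medium. In adipogenic medium these genes stayed within 2-fold of the untreated level. They were chosen by their own read counts. Among the 32883 rows of the count table with an Ensembl rat gene identifier, a gene was taken when its mean level was at least 5 CPM (reads of a gene as a share of all counted reads, scaled to a fixed library size) in untreated cells, at least 8-fold lower in osteogenic medium than in untreated cells, and within 2-fold of untreated cells in adipogenic medium. Ratios were taken between means of 3 libraries after adding 0.5 CPM, and 3 identifiers were left out by the rule. The 15 libraries came from bone marrow mesenchymal stem cells of Sprague-Dawley rats, used at passage 3 to 6 and taken to full confluency. There were 5 groups of 3 libraries each: untreated cells (Control), cells in adipogenic medium (Adi), cells in adipogenic medium with aspirin (Adi_ASA), cells in osteogenic medium (Ost) and cells in osteogenic medium with aspirin (Ost_ASA). The sources used here do not give the composition of each medium, the aspirin dose or the duration. Nor do they say whether the libraries of a group came from separate animals or dishes. The p-values therefore reflect only how far these libraries vary, and that variation may be technical.

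Marrow mesenchymal stem cells are adherent stromal cells that can be driven in culture towards fat-storing adipocytes or matrix-depositing osteoblasts. Each differentiation medium switches on genes of its lineage and lowers many genes of the undifferentiated, growing stromal cell. Aspirin (acetylsalicylic acid, ASA) inhibits the cyclooxygenases that make prostaglandins.

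Genes are given by identifier, because 0 of the 103 identifiers could be paired with a symbol through the tables used here. Their functions, positions and sequences are therefore not stated, and the gene lists and cell type markers prepared for this tissue were not analysed here. For the same reason the cell type on the labels was not checked against its markers. Each library held 18373289 to 22817858 counted reads, and the libraries of a group differed from one another by more than sampling noise. Adjusted p-values are from edgeR's quasi-likelihood test with Benjamini-Hochberg adjustment over 15543 genes, and "called" means an adjusted p under 0.05. All 103 genes passed the filter on low counts. Log2 fold changes come from that model with its normalization factors, whereas CPM values were divided by the column total alone.

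The 103 genes were a minority of the genes that osteogenic medium lowered this far. Of 10348 identifiers with at least 5 CPM in Control, 275 were at least 8-fold lower in Ost. Another 165 of these were also lower in Adi, at 0.5 of Control or less, and 7 were at 2 times Control or more in Adi. Of the 165, 28 were at least 8-fold lower in Adi too. Genes near the limits were much alike on both sides of them. The 3 genes just inside the Ost limit had 12, 11.4 and 5.01 CPM in Control and 1.05, 0.979 and 0.187 CPM in Ost. The 3 just outside had 8.47, 215.6 and 27.8 CPM in Control and 0.621, 26.6 and 3.05 CPM in Ost. The lowest Adi/Control ratios inside the window were 0.503, 0.516 and 0.517, against 0.486, 0.492 and 0.493 just outside. The highest inside were 1.86, 1.95 and 1.97, and the next outside were 2.24, 2.47 and 2.62.

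**Figure D1:**
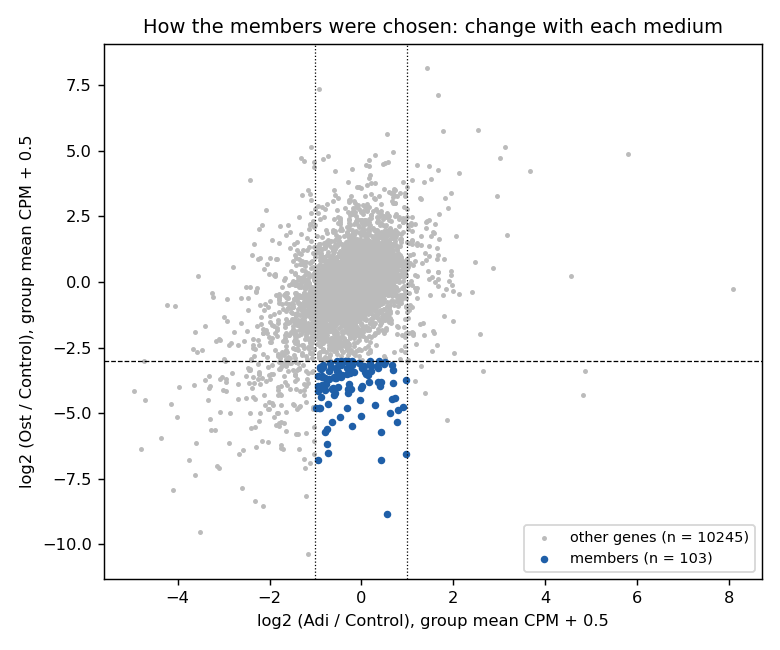
Each point is 1 of 10348 genes with at least 5 CPM in Control. The horizontal axis is log2 of Adi over Control and the vertical axis log2 of Ost over Control, both from group means of 3 libraries plus 0.5 CPM. Dashed and dotted lines mark the limits of the rule, and the 103 chosen genes (blue) fill the box below them.

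In Control the chosen genes covered a wide range of abundance. Group means ran from 5.01 to 9665 CPM with a median of 42.3 CPM, and the middle part of the distribution lay between 13.3 and 135.8 CPM (quartiles). In Ost the median fell to 1.76 CPM, and in Ost_ASA it was 1.97 CPM. In Adi and Adi_ASA the medians were 44.6 and 39.6 CPM. By library, the median over the 103 genes was 39.5 to 41.4 CPM in Control, 41.0 to 47.1 in Adi, 37.5 to 42.6 in Adi_ASA, 1.46 to 1.80 in Ost and 1.82 to 2.11 in Ost_ASA. The 6 libraries from osteogenic medium lay far below the 9 others. For the Control, Adi and Ost libraries the rule set this in advance, and only the Adi_ASA and Ost_ASA libraries were not used by it. No difference is read from the Ost and Ost_ASA medians, since the rule selected genes for low values in Ost.

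Summed over all 103 genes, the level was 23714 ± 473 CPM in Control, 20992 ± 855 in Adi and 19107 ± 72.2 in Adi_ASA (SD, n = 3 each). It was 1258 ± 49.2 CPM in Ost and 1292 ± 64.4 CPM in Ost_ASA (SD, n = 3 each). Ost and Ost_ASA thus held 5.30% and 5.45% of the Control sum, and Adi and Adi_ASA held 88.5% and 80.6%. With the model's TMM factors applied to CPM, an alternative added after seeing the data, Ost and Ost_ASA held 5.44% and 5.67%, Adi held 101.0% and Adi_ASA 88.4%. These factors raised the median log2 ratio to Control over all genes tested by 0.17 in Adi and 0.12 in Adi_ASA, so whether the Adi sum lay below or above Control depended on the scaling. A single gene, ENSRNOG00000010529, made up 40.8% of the Control sum. Without it, the sums were 14050 ± 179 CPM in Control, 11339 ± 434 in Adi, 977 ± 45.3 in Ost and 1034 ± 47.1 in Ost_ASA (SD, n = 3 each). In such bulk samples, fewer cells of a type and less RNA per cell cannot be told apart. Reads of near-identical or overlapping genes may also have been counted for a neighbour, since the sources used here do not give the counting settings.

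Loss in Ost was a description of how the genes were selected, and its size varied between them. The fold by which Ost lay below Control ran from 8.02 to 465, with a median of 12.6 and quartiles of 9.75 and 21.0. These folds carry the added 0.5 CPM, which understates the loss of genes that are low in Ost. On that scale 38 genes reached 16-fold, 14 reached 32-fold, 6 reached 64-fold and 3 reached 100-fold. With the 2 genes that had no read in Ost set to their lower bound from 3 reads instead, these counts were 39, 15, 8 and 5, and the median stayed at 12.6. The 32 genes with at least 100 CPM in Control had a median of 16.8-fold and kept a median of 12.1 CPM in Ost. The 55 genes between 10 and 100 CPM had a median of 12.6-fold and kept 1.24 CPM. The 16 genes between 5 and 10 CPM had a median of 11.0-fold and kept 0.173 CPM, a level at which the added 0.5 CPM limits the ratio. In Ost, 33 of the 103 genes still had at least 5 CPM and 38 had under 1 CPM. In edgeR's test, 101 of the 103 were called lower in Ost than in Control, beside 34.8% of all genes, and nothing follows from this because the same libraries chose the genes. All 3 Ost libraries lay below all 3 Control libraries for 101 genes, beside 38.5% of all genes tested, again in the libraries that chose them.

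Within the window that the rule set for adipogenic medium, the genes spread to both sides of Control. The median Adi/Control ratio was 0.82, with 67 genes below 1 and 36 at or above it. With TMM factors the median was 0.929, with 62 genes below 1. By column totals it was 0.653 for the genes with at least 100 CPM in Control, 0.866 for those between 10 and 100 CPM and 1.05 for those between 5 and 10 CPM. edgeR's test called 40 of the 103 lower in Adi than in Control and 27 higher, beside 24.4% and 24.5% of all genes, and 36 were not called. These counts too describe a contrast that the rule used.

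**Figure D2:**
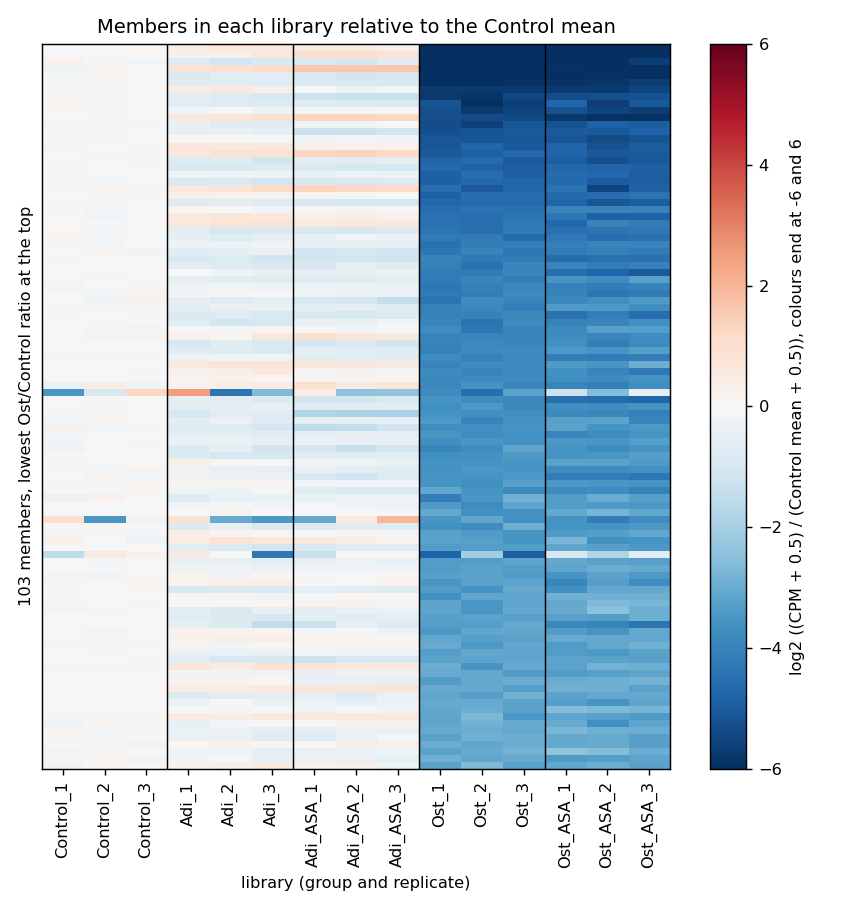
Rows are the 103 genes and columns the 15 libraries in their 5 groups. Colour gives log2 of each library's CPM plus 0.5 over the Control mean plus 0.5, from -6 (blue) to 6 (red). The columns of Ost and Ost_ASA are blue in nearly all rows, Adi and Adi_ASA stay pale in nearly all, and the 3 rows with strong colour within Control or Adi are the genes of wide spread.

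ENSRNOG00000010529 was the most abundant of the 103 genes in Control. Its level was 10229, 9192 and 9572 CPM in the Control libraries and 10056, 9691 and 9212 CPM in Adi. In Ost it was 278, 279 and 286 CPM, which is 34.3-fold lower than Control. With aspirin it was 8715, 8697 and 8647 CPM in Adi_ASA and 278, 230 and 265 CPM in Ost_ASA. The libraries of osteogenic medium were thus near 1 level with or without aspirin, and the Adi and Control libraries overlapped in CPM. In edgeR's model, with its normalization factors, the gene was called higher in Adi than in Control by 0.19 on the log2 scale (adjusted p = 0.0288), a contrast that the rule used.

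ENSRNOG00000012216 had the lowest Ost/Control ratio and was the 7th most abundant of the 103 genes in Control. The Control libraries had 445, 490 and 529 CPM, and the Adi libraries had 663, 763 and 728 CPM. In Ost the values were 0.399, 0.708 and 0.546 CPM, from 34 reads in all 3 libraries together. The Ost mean was 465-fold below Control after adding 0.5 CPM to each, and 885-fold below it without that addition. In Ost_ASA they were 0.411, 0.191 and 0.527 CPM, from 25 reads. All Adi libraries lay above all Control libraries, so the gene stood higher in 1 medium and was almost unread in the other.

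Another 2 genes had no read in any Ost library and were singled out after their values were seen. ENSRNOG00000031851 was at 26 ± 2.10 CPM in Control and 35.1 ± 2.17 CPM in Adi (SD, n = 3 each). Set against a floor of 3 reads over the Ost group, and with no CPM added, it was at least 544.9-fold lower in Ost than in Control. ENSRNOG00000027940 was at 7.30 ± 1.20 CPM in Control and 9.76 ± 2.04 CPM in Adi (SD, n = 3 each), and was at least 153.0-fold lower in Ost. The Ost_ASA libraries together held 2 reads of the first and 4 reads of the second. Both genes were thus at or near 0 in osteogenic medium with and without aspirin.

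The rule used none of the libraries with aspirin, so Adi_ASA against Ost_ASA is the comparison that is independent of how the genes were selected. There 101 of the 103 genes (98.1%) were called higher in Adi_ASA, beside 32.9% of all genes tested, and 0 were called higher in Ost_ASA. DESeq2 also called 101, but its share of all genes is not given here. The median log2 fold change was 3.93 over the 103 genes and 0.0092 over all genes tested. A call together with a log2 difference of at least 3 was reached by 86 genes, beside 4.14% of all genes. On group means plus 0.5 CPM, Ost_ASA was at least 4-fold lower than Adi_ASA for 100 genes, at least 8-fold for 68, at least 16-fold for 26 and at least 32-fold for 13. For 101 genes every Ost_ASA library lay below every Adi_ASA library, beside 31% of all genes tested.

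The largest called difference in this comparison was that of ENSRNOG00000015518. This gene had 122, 121 and 108 CPM in the Adi_ASA libraries and 0.137, 0.0478 and 0 CPM in the Ost_ASA libraries, the latter from 4 reads. The log2 difference was 10.84 ± 0.22 (SE, edgeR adjusted p = 2.18e-17), and it was 12.05 without replicate 1 of Ost_ASA, which held most of those reads. For ENSRNOG00000012216 the Adi_ASA libraries had 666, 667 and 599 CPM, and the log2 difference from Ost_ASA was 10.78 ± 0.15 (SE, edgeR adjusted p = 3.33e-22). The most abundant gene, ENSRNOG00000010529, differed by 5.15 ± 0.08 on the log2 scale (SE, edgeR adjusted p = 1.24e-21). Groups did not overlap for any of these 3 genes.

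Measured against Control by the limits of the rule, the aspirin libraries placed most of the genes where the libraries without aspirin had. Ost_ASA was at least 8-fold below Control for 92 of the 103, and the other 11 stood at 12.7% to 48.8% of Control. Adi_ASA was within 2-fold of Control for 88, at 0.5 of Control or less for 11 and at 2 times Control or more for 4. Both held for 77 genes. These counts share the Control libraries with the rule. The shares of all genes within the same limits are not given here, so the counts only describe the 103 genes.

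**Figure D3:**
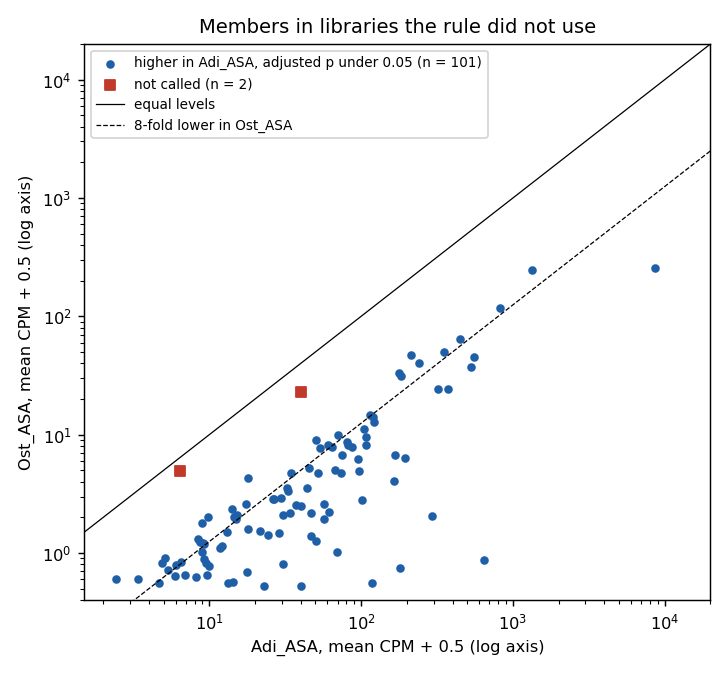
Each point is 1 of the 103 genes, with its mean in Adi_ASA on the horizontal axis and in Ost_ASA on the vertical axis, both as CPM plus 0.5 on log axes. Lines mark equal levels and 8-fold lower in Ost_ASA. The genes called in the comparison (101) lie below the line of equal levels, and 68 lie at or beyond the 8-fold line.

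A set of 3 genes stood apart by their spread within groups and were singled out after their values were seen. Their coefficients of variation (CV) in Control were 58.7%, 127.8% and 103.8%, whereas the other 100 genes had at most 34.9%. Such a spread, over 50%, was found in 0.852% of the 10678 rows with at least 5 CPM in Control. ENSRNOG00000013548 had 15.9, 68.3 and 55.5 CPM in Control, 67.6, 46.1 and 1.89 in Adi, 1.11, 10.6 and 1.05 in Ost, 18.2, 50.5 and 49.5 in Adi_ASA and 24.3, 12.8 and 30.3 in Ost_ASA. Its groups overlapped in the aspirin libraries, and its log2 difference between Adi_ASA and Ost_ASA was 0.88 ± 1.00 (SE, edgeR adjusted p = 0.464).

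ENSRNOG00000052685 had 0.526, 5.49 and 27 CPM in Control and 65.2, 0.0519 and 1.36 CPM in Adi, so that 1 library made most of each mean. Its log2 difference between Adi_ASA and Ost_ASA was 0.48 ± 1.77 (SE, edgeR adjusted p = 0.83), and this sign turned to -1.37 without replicate 1 of Adi_ASA. ENSRNOG00000045695 had 19.1, 0.343 and 7.85 CPM in Control and 0.644, 13.9 and 37.2 CPM in Adi_ASA. It was called in that comparison, at 6.48 ± 2.16 on the log2 scale (SE, edgeR adjusted p = 0.0215). That call was lost without replicate 3 of Adi_ASA (adjusted p = 0.0666) and without replicates 1, 2 or 3 of Ost_ASA (0.0581, 0.0675 and 0.0624). Both ENSRNOG00000052685 and ENSRNOG00000045695 were also the genes not called between Ost and Control. What set these 3 genes apart was not tested. They include every chosen gene whose Adi_ASA and Ost_ASA libraries overlapped, and were picked after their values were seen. Leaving them out therefore had to give 100 of 100 genes with all Ost_ASA libraries below all Adi_ASA libraries. With these 3 genes kept, this held for 101 genes, beside 31% of all genes tested.

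The design also asks what aspirin did within each medium. In osteogenic medium every called change among these genes was under 2-fold. Estimated changes of at least 2-fold, in 8 genes, were not called. Of the 103, 9 were called higher in Ost_ASA than in Ost (8.74%, beside 2.34% of all genes) and 4 were called lower (3.88%, beside 1.29%). The median log2 change was 0.08. These counts share the Ost libraries with the rule, which selected genes for low values there. The 9 that rose did so by 0.23 to 0.82 on the log2 scale and then stood at 5.84% to 14.8% of Control. The 4 that fell had log2 changes of -0.96 to -0.65 and stood at 1.29% to 4.72% of Control. The count of higher calls was 4 without replicate 1 of Ost, and 5 without replicate 2 or replicate 3 of Ost_ASA. The count of lower calls was 2 without any 1 of those 3 libraries.

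ENSRNOG00000017072 had the largest called rise in osteogenic medium. It was at 1.06, 1.25 and 1.23 CPM in Ost and at 1.78, 1.63 and 2.72 CPM in Ost_ASA, from 74 and 135 reads, while Control was at 24.2, 23.5 and 23.6 CPM. The groups did not overlap, and the log2 change was 0.82 ± 0.16 (SE, edgeR adjusted p = 0.00527). Without replicate 3 of Ost_ASA, its highest library, the change was 0.54 (edgeR adjusted p = 0.281), without replicate 1 of Ost the adjusted p was 0.0514, and with only the groups compared in the fit it was 0.12. ENSRNOG00000007827 followed at 0.72 ± 0.16 (SE, edgeR adjusted p = 0.0421), from 0.932, 1.14 and 0.865 CPM in Ost to 1.74, 1.67 and 1.36 CPM in Ost_ASA, and lost its call under 8 of 11 alternatives, among them without any 1 of replicates 1, 2 or 3 of Ost (adjusted p = 0.161, 0.0555 and 0.173) and without replicate 1 or 2 of Ost_ASA (0.144 and 0.121). Both genes remained far below their Control level.

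ENSRNOG00000004554 showed the largest called fall with aspirin in osteogenic medium. Its level was 99.8, 88.2 and 78.1 CPM in Ost and 47.5, 45.5 and 41.9 CPM in Ost_ASA, a log2 change of -0.96 ± 0.09 (SE, edgeR adjusted p = 3.78e-06). It was also lower with aspirin in adipogenic medium, at 766, 737 and 631 CPM in Adi and 525, 546 and 598 CPM in Adi_ASA, a log2 change of -0.41 ± 0.08 (SE, edgeR adjusted p = 0.00792). Control stood above all of them, at 1073, 1261 and 1136 CPM. The libraries of this gene thus ordered without overlap from Control through Adi, Adi_ASA and Ost down to Ost_ASA, and both calls held under all 11 alternatives.

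ENSRNOG00000016957 fell by like amounts in both media. It was at 5.06, 4.84 and 5.46 CPM in Ost and 3.15, 3.16 and 2.72 CPM in Ost_ASA, a log2 change of -0.75 ± 0.13 (SE, edgeR adjusted p = 0.00169). In adipogenic medium it was at 54.3, 49.9 and 49.2 CPM without and 33, 27.6 and 35.7 CPM with aspirin, a log2 change of -0.73 ± 0.09 (SE, edgeR adjusted p = 9.1e-05). The difference between these changes was 0.02 on the log2 scale (edgeR adjusted p = 0.977), which does not show that they are equal.

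In adipogenic medium more of the 103 genes were called, and most of the called genes fell. The genes had a median of 44.6 CPM in Adi but 1.76 CPM in Ost, so calls in the media were made at unequal precision. By estimated size alone, 3 genes changed at least 2-fold with aspirin in adipogenic medium and 8 in osteogenic medium. Of the 103, 18 were called lower in Adi_ASA than in Adi (17.5%, beside 1.85% of all genes) and 4 higher (3.88%, beside 2.49%). Among the 10678 genes with at least 5 CPM in Control, the shares were 2.43% lower and 3.07% higher. The median log2 change of the 103 was -0.11. These counts share the Adi libraries with the rule, which kept genes whose Adi mean was above 0.5 of Control. Of the 18 that fell, 17 had no overlap between Adi_ASA and Adi, beside 96.9% of all genes called lower there. Of the same 18, 11 already had a lower mean CPM in Adi than in Control, and 15 had a lower mean CPM in Adi_ASA than in Control. Their log2 changes ran from -1.16 to -0.24, and those of the 4 that rose from 0.39 to 0.59. The count of lower calls was 10 without replicate 2 of Adi_ASA and 9 without replicate 3 of Adi_ASA. The count of higher calls was 1 without replicate 2 of Adi or replicate 1 or 2 of Adi_ASA, and 2 without replicate 3 of Adi_ASA.

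ENSRNOG00000003183 had the largest called fall there. Its level was 61.5, 68.9 and 66 CPM in Control, 31.8, 42 and 39 CPM in Adi and 18.4, 17.5 and 16.4 CPM in Adi_ASA. The log2 change with aspirin was -1.16 ± 0.09 (SE, edgeR adjusted p = 2.14e-07). In osteogenic medium it went from 4.92, 4.63 and 4.69 CPM to 4.2, 3.87 and 3.38 CPM, and was not called (edgeR adjusted p = 0.204). Aspirin thus took this gene further below Control in the medium in which it had stayed higher.

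ENSRNOG00000012471 fell from 182, 190 and 173 CPM in Adi to 102, 102 and 118 CPM in Adi_ASA, a log2 change of -0.82 ± 0.07 (SE, edgeR adjusted p = 3.72e-07). Its Control libraries had 237, 261 and 259 CPM, so Control, Adi and Adi_ASA formed 3 separate levels. In Ost it was at 6.03, 6.42 and 7.24 CPM and in Ost_ASA at 7.49, 7.27 and 8.29 CPM, which was not called (edgeR adjusted p = 0.207).

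The largest called rise in adipogenic medium was that of ENSRNOG00000004540, which had 49.2, 68.2 and 58.3 CPM in Control. It had 105, 110 and 129 CPM in Adi and 180, 178 and 181 CPM in Adi_ASA, a log2 change of 0.59 ± 0.13 (SE, edgeR adjusted p = 0.0245). The groups did not overlap, but the call was lost without replicate 1 or 2 of Adi (adjusted p = 0.0892 and 0.0992) or without replicate 1, 2 or 3 of Adi_ASA (0.0726, 0.0695 and 0.0949). In osteogenic medium it was almost unread, with 8 reads in Ost and 16 in Ost_ASA. Adi_ASA libraries thus lay near 3 times the Control level for a gene that osteogenic medium left at a trace.

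ENSRNOG00000048088 rose with aspirin in adipogenic medium and fell with it in osteogenic medium. The Adi libraries had 186, 193 and 237 CPM and the Adi_ASA libraries 292, 299 and 283 CPM, a log2 change of 0.45 ± 0.07 (SE, edgeR adjusted p = 0.00129). With only the groups compared in the fit, that rise was not called (adjusted p = 0.0527). The Ost libraries had 2.62, 2.45 and 2.37 CPM and the Ost_ASA libraries 1.69, 1.48 and 1.49 CPM, a log2 change of -0.65 ± 0.17 (SE, edgeR adjusted p = 0.0398). The fall rests on 156 and 102 reads and was not called with only the groups compared in the fit (adjusted p = 0.105) or without any 1 of replicates 1, 2 or 3 of Ost (adjusted p = 0.167, 0.0987 and 0.0748) or of Ost_ASA (0.062, 0.121 and 0.155). Control was at 116, 127 and 117 CPM, between the levels in the media.

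**Figure D4:**
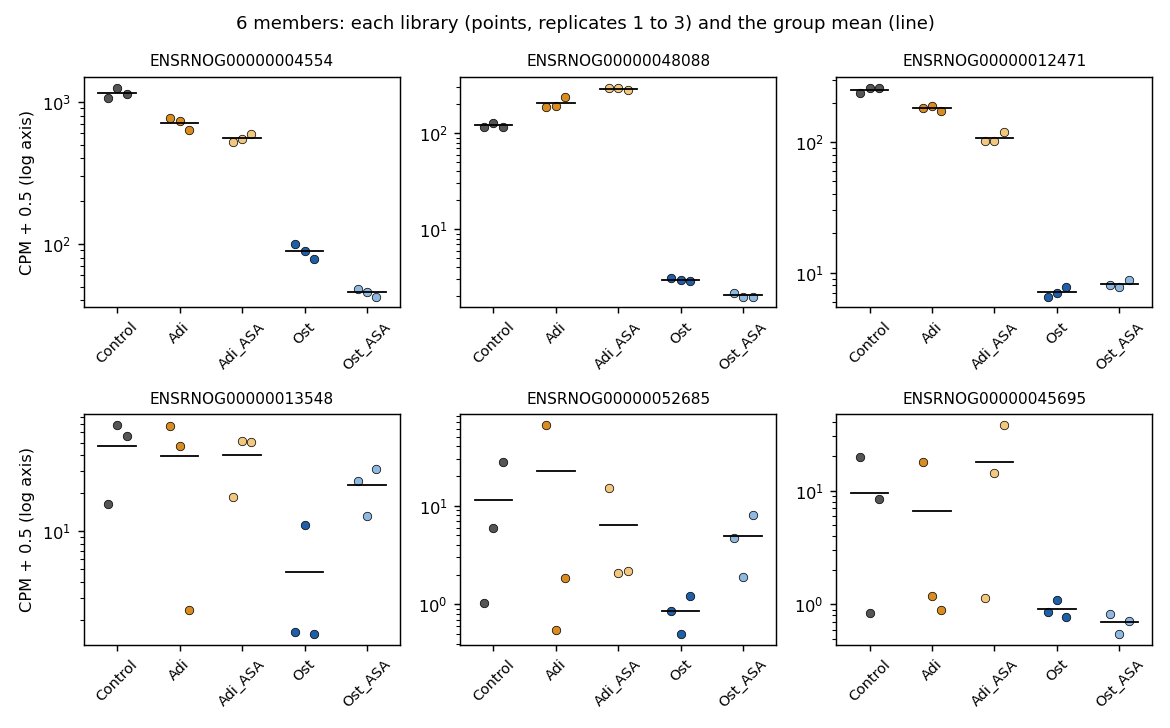
Each panel shows 1 gene, with the CPM plus 0.5 of every library as a point on a log axis and the 5 groups along the horizontal axis. Short lines mark group means. For the 3 upper genes, named for their response to aspirin, the Ost and Ost_ASA libraries are lowest, and the step with aspirin is small beside the step between the media. The 3 lower genes are those of wide spread, and their points scatter within most groups.

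The difference of the aspirin effects was tested as an interaction, the change in adipogenic medium minus that in osteogenic medium. It was called more negative in adipogenic medium for 11 of the 103 genes (10.7%, beside 1.63% of all genes) and more positive for 2 (1.94%, beside 1.2%). The median difference was -0.15 on the log2 scale. Both the Adi and the Ost libraries in this contrast were used to choose the genes. Of the 13 called, 5 had an aspirin call in Adi and none in Ost, 5 had one in Ost and none in Adi, 2 had both, and 1 had no call in either medium. The count of more positive genes was 1 without replicate 3 of Adi_ASA.

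ENSRNOG00000008947 had the most negative called difference, -1.19 ± 0.19 (SE, edgeR adjusted p = 0.000852). Its level went from 53.4, 47.2 and 45.1 CPM in Adi to 34.8, 32.7 and 33.3 CPM in Adi_ASA, and from 1.02, 0.925 and 1.41 CPM in Ost to 1.6, 1.67 and 1.8 CPM in Ost_ASA. The Adi_ASA libraries lay below Adi and the Ost_ASA libraries above Ost. The rise in osteogenic medium was not called (edgeR adjusted p = 0.0979) and rests on 71 reads in Ost and 111 in Ost_ASA. ENSRNOG00000012471 differed by -1.06 ± 0.12 (SE, edgeR adjusted p = 2.66e-05). The 2 genes called more positive were ENSRNOG00000048088, at 1.10 ± 0.19 (SE, edgeR adjusted p = 0.00196), and ENSRNOG00000004554, at 0.55 ± 0.12 (SE, edgeR adjusted p = 0.0167). For ENSRNOG00000004554 this means a smaller fall in adipogenic than in osteogenic medium, and the call was lost without replicate 3 of Adi_ASA (adjusted p = 0.054) or of Ost_ASA (0.0551).

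Over both media, 32 of the 103 genes were called with aspirin in at least 1 medium, beside 7.4% of all genes tested. Of the 103, 3 were called in both media, beside 0.573% of all genes, and 71 in neither. By the sign of the estimate alone, 43 were higher with aspirin in osteogenic and lower in adipogenic medium, 27 lower in both, 17 higher in both and 16 lower in osteogenic and higher in adipogenic medium. Most of these estimates were not called, and in osteogenic medium 50 of the 103 genes had under 100 reads over the 3 Ost libraries together.

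**Figure D5:**
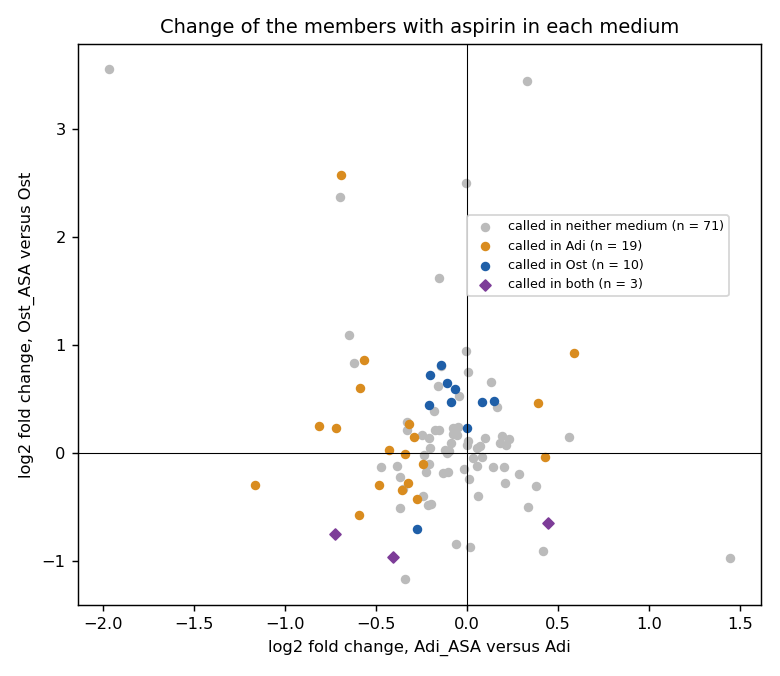
Each point is 1 of the 103 genes, with its log2 change with aspirin in adipogenic medium on the horizontal axis and in osteogenic medium on the vertical axis. Colours separate the 19 genes called in Adi alone, the 10 called in Ost alone, the 3 called in both and the 71 called in neither. The points farthest to the left, to the right and at the top are genes called in neither medium.

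The 165 genes that were at least 8-fold lower in osteogenic medium and also lower in adipogenic medium are the closest set for comparison. In Adi_ASA against Adi, 15 of those 165 genes (9.09%) were called higher and 5 (3.03%) lower, with a median log2 change of 0.16. Of the 103 genes, 4 (3.88%) were called higher and 18 (17.5%) lower there, beside 2.49% and 1.85% of all genes. In Ost_ASA against Ost, 5 of the 165 (3.03%) were called higher and 7 (4.24%) lower. Of the 103 genes, 9 (8.74%) were higher and 4 (3.88%) lower, beside 2.34% and 1.29% of all genes. The difference of the aspirin effects was called more positive in adipogenic medium for 8 of the 165 (4.85%) and more negative for 3 (1.82%). For the 103 it was 2 (1.94%) and 11 (10.7%), beside 1.2% and 1.63% of all genes. The Adi libraries decided which set a gene belonged to. The difference between the sets was not tested.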

How the data were processed

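Per the labels, total RNA was sequenced in 15 libraries. The authors deposited 1 table of unnormalised read counts with 34480 rows. The submitters' processing notes name HISAT2 2.0.4, HTSeq 0.9.1, DESeq 1.18.0 and the build Rnor_6.0. The sources used here do not give their roles, settings, strand or annotation release. Rows with names of another kind (0.726% of reads) stayed in library totals and in the model. Library totals of 18373289 to 22817858 reads limit the precision of low values. The lower bounds set from 3 reads cover counting error only, whereas the SD and SE values also hold the variation between libraries.

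CPM was the count over the column total. The 103 genes and all lists were chosen with earlier results of these data known. All 15 libraries were fitted in 1 edgeR 4.0.16 model of group means (TMM, filterByExpr, robust quasi-likelihood test), with 15543 genes kept. Alternatives used DESeq2 1.42.0, RLE factors, no filter, only the groups compared, the replicate number as a block, and each library left out in turn. The test was also run on simulated counts of 15368 genes for Ost_ASA against Ost. It recovered 26, 46, 48 and 49 of 50 genes changed 1.5-, 2-, 4- and 8-fold, with 7 false calls. These recovery counts were not split by expression level. They therefore do not give the recovery for the 103 genes, whose median in Ost was 1.76 CPM.

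At most 2 identifiers in each direction of a comparison are named, by the largest called log2 change, with the most abundant gene and that of lowest Ost/Control ratio. Others are said to be singled out after their values were seen. The 28 gene lists could not be matched to identifiers and were not tested.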

Additional observations from a re-analysis of the deposited data

Results flagged for a closer look

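The results below drew attention because the change with aspirin differed between the media by a test of the difference itself, edgeR's interaction term with Benjamini-Hochberg adjustment over all genes tested. Of the 103 genes, 2 differed in the positive direction (1.94%, beside 1.2% of all genes tested). In the negative direction 11 differed (10.7%, beside 1.63%), taken as adipogenic minus osteogenic medium. The Adi and Ost libraries in this contrast also chose the genes, so these counts are not independent of the rule. ENSRNOG00000048088 differed by 1.10 on the log2 scale, being higher with aspirin in all 3 libraries of adipogenic medium and lower in all 3 of osteogenic medium. The call of the fall in osteogenic medium was lost under 7 of 11 alternatives. The call of the rise in adipogenic medium was lost with only the groups compared in the fit. ENSRNOG00000004554 differed by 0.55, with lower values in both media. ENSRNOG00000008947 differed by -1.19 and ENSRNOG00000012471 by -1.06. No formal test for a single outlying library was applied within groups of 3.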

How the results depend on the processing

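With a 16-fold limit in place of 8-fold, 38 genes met the rule, and with a 4-fold limit 246 did. Other settings gave 77 (pseudocount 1), 124 (0.1), 105 (TMM, 93 shared), 87 (Control of at least 10 CPM) and 102 (medians, 97 shared). Leaving out 1 library at a time gave 96 to 106. Without 1 library, Adi_ASA against Ost_ASA gave 100 to 101 higher calls, Ost_ASA against Ost 4 to 9 higher and 2 to 4 lower, Adi_ASA against Adi 1 to 3 higher and 9 to 13 lower, and the difference of the aspirin effects 1 to 2 more positive and 8 to 14 more negative. For Ost against Control it gave 100 to 101, and for Adi against Control 22 to 27 higher and 36 to 39 lower. Fitting only the groups compared left 3 higher calls in Ost_ASA against Ost, and no filter left 2 higher calls in Adi_ASA against Adi. The cause of these moves was not tested, though a left-out library also means fewer samples. DESeq2 called 6 higher and 27 lower in Adi_ASA against Adi, and 16 more negative differences. The shares of all genes that DESeq2 called are not given here, so these counts cannot be read as stronger than edgeR's. They also come from contrasts that share libraries with the rule. The call in Adi_ASA against Ost_ASA held under all 11 alternatives for 100 of 101 genes, that in Ost_ASA against Ost for 4 of 13 and that in Adi_ASA against Adi for 8 of 22. Low counts limit the osteogenic libraries, where 38 of the 103 genes had under 1 CPM.

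Deviations of libraries with the same replicate number correlated at -0.10 to 0.08 over 30 pairs. No pairing by number was thus seen, but weak pairing is not excluded, since libraries with different numbers were not compared in this way. With the number as a replicate block, 101 genes were called higher in Adi_ASA than in Ost_ASA. With aspirin, 8 were called higher and 4 lower in osteogenic medium, and 3 higher and 16 lower in adipogenic medium. There were 2 more positive and 11 more negative differences of the aspirin effects. The shares of all genes called under the block and the other alternatives are not given here, so these counts cannot be set against them.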

Other observations

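Among rows whose names are not Ensembl identifiers, 10 met the same thresholds. Their median level was 11.2 CPM in Control, 8.24 in Adi, 7.87 in Adi_ASA, 0.350 in Ost and 0.407 in Ost_ASA. All 10 were called higher in Adi_ASA than in Ost_ASA by edgeR's test, beside 32.9% of all genes tested, in libraries that the thresholds did not use. Their median log2 difference was 4.76. For all 10, every Ost_ASA library lay below every Adi_ASA library, beside 31% of all genes tested. The sources used here do not say what these rows are.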
